A study of Mus musculus with 7 samples.

Results

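The cells described here were untransduced mouse embryonic fibroblasts (MEF), grown from C57BL/6 embryos in MEF medium and given no treatment. All barcodes of their library with at least 500 UMIs (unique molecular identifiers, which count captured transcript molecules) were taken, which gave 131 of the 1124 such barcodes in the series. Because barcodes that share 15 of 18 bases carried the same profile, as shown next, these barcodes were read as 62 of 606 cells. The study converted fibroblasts and pericytes into oligodendrocyte progenitor-like cells with transcription factors. Its other libraries, also from C57BL/6 mice, were primary oligodendrocyte progenitors of the brain (pOPC) and primary cerebral pericytes (PC), both untreated, and the 2 starting populations after viral transduction. The viruses carried Olig2 and Sox10 in the libraries named 2F (from MEF and from PC), and Nkx6.2 as well in those named 3F. Every library was made by droplet capture on the ddSEQ system with counting of transcript 3′ ends, and there was 1 library per population. Embryo age, the number of embryos and whether they were pooled are not given in the labels. All values therefore describe these libraries, the cells are not replicates, and no p-value is given.

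Embryonic fibroblast cultures are mixed mesenchymal populations taken from much of the embryo body. On a stiff culture surface many of the cells build stress fibres and switch on smooth muscle contractile proteins, under serum response factor and TGF-beta signalling, while others keep a matrix-producing, growing or progenitor-like state. Positional Hox genes and imprinted growth genes such as Igf2 remain as traces of the embryonic source, and small numbers of resident macrophages and neural crest derivatives can be carried along.

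The deposited values had to be decoded first: each was read as the place of a UMI count in a list of counts sorted as text. The MEF values ran over 199 codes without a gap. The code taken to mean 2 UMIs was, leaving out 0 and 1, the commonest in 131 of 131 barcodes, and 95.1% of UMIs lay in codes whose count had a probability over 0.99. No label states this reading, and every level here rests on it. Each value was given its most probable count, and 120 was the largest count with a probability over 0.99, so larger single counts are approximate. Some smaller counts were uncertain too, such as 73 (probability 0.782), 76 (0.505) and 108 (0.942). Their expected counts were 73.2, 76.5 and 108.1.

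The barcodes fell into families that shared their last 15 bases and differed only in the first 3. Of the 62 families, 13 held 1 barcode, 29 held 2 and 20 held 3, so that 118 of 131 barcodes had a relative. A family of 3 is shown, 5′ to 3′, because its counts let a reader see that the barcodes carried the same profile. Capitals mark the bases that differ.
deepest barcode: AAcagcagacccactgca
second barcode: GAcagcagacccactgca
shallowest barcode: GGcagcagacccactgca
These barcodes held 20020, 12688 and 4606 UMIs. Acta2 had 247, 177 and 62 UMIs in them, Col1a1 157, 85 and 18, and Igf2 2, 1 and 0, so all 3 barcodes showed a cell with much Acta2 and almost no Igf2. The decoded counts 247 and 177 have probabilities of 0.316 and 0.261 and expected counts of 293.3 and 176.2. Counting positions from 1 at the 5′ end, the change from the deeper to the shallower barcode was A1G in 68 pairs, A2G in 30, A3G in 8, G2C in 2 and G1A in 1, where a pair can carry more than 1 change.

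The expression profiles separated families from one another. Over 89 barcode pairs of the same family, the mean chi-square per gene ran from 0.355 to 1.12 with a median of 0.624, where sampling noise alone gives 1. Over 8426 pairs of different families it ran from 1.10 to 12.97 with a median of 2.47. The ranges met only at their ends: 85 same-family pairs and 0 pairs of different families lay below 1. The second barcode of a family held a median of 65.2% of the UMIs of the deepest (33.8% to 92.4%). The deepest barcode of each family was therefore taken as the cell, which left 62 cells with 455587 UMIs in all and 788 to 23319 UMIs per cell (median 6880.5). How the families arose was not tested. No MEF barcode occurred in another library.

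**Figure D1:**
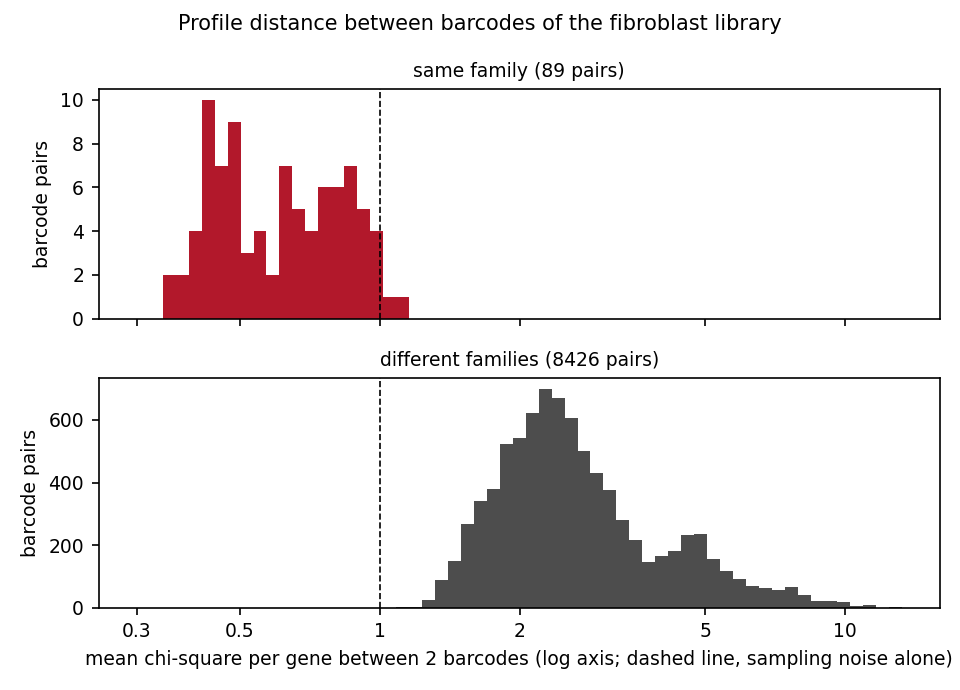
Histograms of the mean chi-square per gene between 2 barcodes of the fibroblast library (log axis), for pairs of the same family (upper) and of different families (lower), with the dashed line at the value of 1 that sampling noise alone gives. Same-family pairs sit mostly left of the line (85 of 89), and pairs of different families all lie right of it.

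Fibroblast genes were plentiful in the library, though not confined to it. The fibroblast list took 6.55% of UMIs, against 0.474% in pOPC and 2.30% (PC) to 4.37% (MEF-2F) in the others. By the 2-fold rule given below, 16 of 27 members were higher and 5 lower than in PC. Against MEF-2F 12 of 26 were higher and 5 lower. Every cell of PC, MEF-2F and PC-2F also held 3 or more members. All 27 genes of the fibroblast list were detected, and of the 5 chosen markers 33 cells held all, 19 held 4 and 56 of 62 held 3 or more. Levels are given as CPM (the UMIs of a gene scaled to the same library total) with exact 95% Poisson intervals, which cover counting error only. Each UMI marks 1 transcript end, so CPM is not divided by gene length. Not every fibroblast gene was common: Pdgfra, the PDGF receptor of most mesenchymal progenitors, had 3 UMIs in 3 cells, and the small proteoglycan genes Dcn and Lum were seen in 9 and 11 cells.

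The markers themselves ranged widely over the cells. Acta2 (smooth muscle actin, chr19:34241090-34255590 in GRCm38, minus strand) stood at 8780 CPM (8510 to 9056). It was found in 61 cells and took 0% to 4.65% of a cell's UMIs, with a median of 0.556%. Col1a1 (chr11:94936224-94953042) and Col1a2 (chr6:4504814-4541544) encode the chains of type I collagen. Col1a1 stood at 5621 CPM (5406 to 5843) in 57 cells, with 0%, 0.443% and 3.81% as the lowest, median and highest cell. Col1a2 stood at 7085 CPM (6843 to 7334) in 53 cells, with 0%, 0.539% and 5.08%. Igf2 (chr7:142650766-142666816, minus strand), a fetal growth factor, stood at 6221 CPM (5994 to 6454) in 55 cells, with 0%, 0.336% and 3.63%. Thy1 (chr9:44043384-44048579), a surface glycoprotein of fibroblasts, was lower, at 379.7 CPM (325 to 441) in 37 cells, and 1 cell gave 21.4% of its UMIs.

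The other abundant genes were those of cytoskeleton and matrix. Actb (cytoplasmic actin) led with 16517 CPM, and was found in 62 of 62 cells. Matrix genes followed: fibronectin (Fn1) at 6537 CPM, thrombospondin 1 (Thbs1) at 6372, Sparc at 6025, the follistatin-like protein Fstl1 at 3933, the collagen-crosslinking enzyme Lox at 2434 and Col3a1 at 2022. Tmsb4x, which binds actin monomers, stood at 6174 CPM, the intermediate filament gene Vim at 4585 and the contractile gene Tagln at 4836.

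Against the other libraries, Igf2 and contractile genes stood apart. Igf2 had 0 to 2 UMIs in each of the other 6 libraries (at most 3.09 CPM) and was at least 345-fold higher than in MEF-2F, which had 0 UMIs and was set at 3. Tagln was 53.9-fold and Acta2 35.1-fold higher than in MEF-3F, the next highest library for both. Actg2 (enteric smooth muscle actin) stood at 1003 CPM in MEF and, from 2 UMIs, at 12.01 CPM (1.45 to 43.4) in MEF-2F, the next. Cnn1 (calponin), at 474 CPM (413 to 542) in MEF, had 0 UMIs in all 6 others. Thbs1 was 20.8-fold higher than in MEF-2F, the next library. The same rule named Itga11 (a collagen-binding integrin, 248 CPM against at most 6.18 elsewhere), Aspn (asporin, 386 against 3.09), Ltbp2 (a latent TGF-beta binding protein, 176 against 8.81) and Plagl1 (an imprinted transcription factor, 158 against 8.40). At the other end, the stearoyl-CoA desaturase genes Scd1 and Scd2 were lowest in MEF, Scd2 at 579.5 CPM against 1275 to 2600 elsewhere. Ccnd1 (cyclin D1) was at 76.8 CPM against 201 to 865, and the adducin gene Add3 at 24.1 against 102 to 433.

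**Figure D2:**
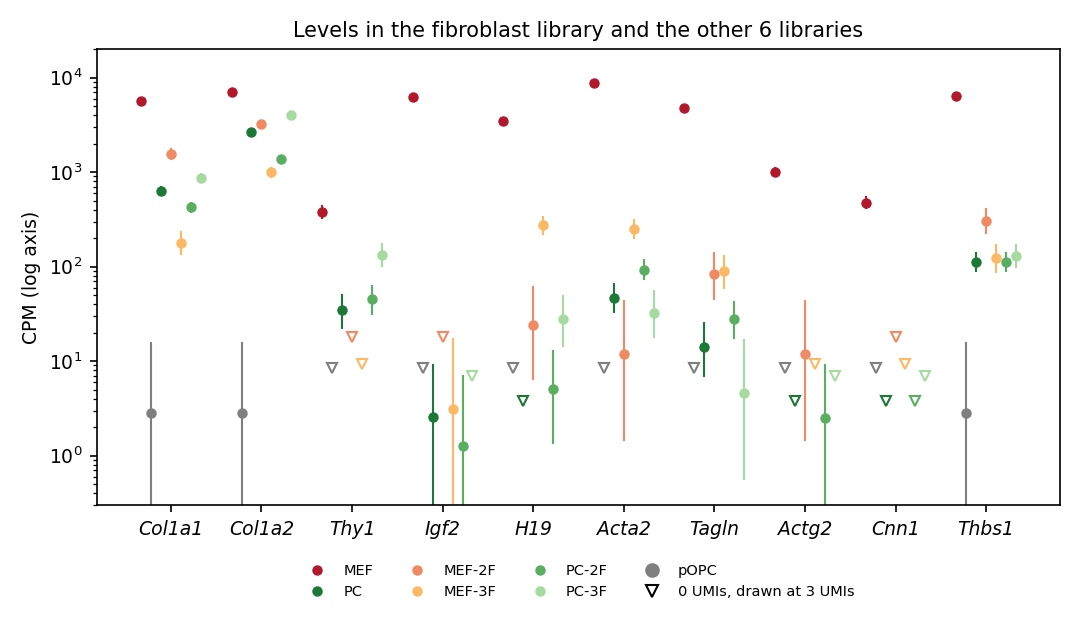
Levels of 10 genes in CPM (log axis) in the fibroblast library (MEF, red) and the other 6 libraries, with exact 95% Poisson intervals as vertical lines; open triangles mark genes with 0 UMIs, drawn at 3 UMIs. MEF is the highest point for each gene shown; Col1a2 lies closest to another library, and Igf2 has at most 2 UMIs in any other library.

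The contractile list was higher in MEF as a group. A gene was called between 2 libraries where it had 20 CPM and 10 UMIs in 1 of them, a ratio of 2-fold or more and an exact interval that excluded 1. Of the 17 contractile genes tested, 17 were higher in MEF than in pOPC, where 18.6% of 8300 genes were called higher, and 13 than in PC (14.4% of 8045). The count was 15 against MEF-2F (11.5% of 7163), 17 against MEF-3F (11.8% of 7858), 15 against PC-2F (12.7% of 8414) and 15 against PC-3F (13.7% of 8201). The list's median log2 ratio ran from 3.27 (PC-3F) to 5.69 (pOPC), and 0 members were lower in any of the 6, where the medians over all tested genes ran from −0.35 to −0.01. Division genes differed by library. Genes of DNA replication (the G1/S list) were lower in MEF than in pOPC for 11 of 15 and than in PC for 8 of 14, with 0 higher, but higher than in MEF-3F for 8 of 13 and than in MEF-2F for 4 of 13, with 0 lower. Of 28 G2/M genes tested 26 were lower in MEF than in pOPC (29.2% of all genes were called lower) and 17 each than in PC (18.7%), PC-2F (20.9%) and PC-3F (20.1%). Against the transduced fibroblasts few G2/M genes were called: 3 of 26 were higher and 0 lower than in MEF-2F (15.5% called lower), and 3 higher and 4 lower than in MEF-3F (20.8%). TMM scaling, which trims extreme genes, shifted log2 ratios by 0.08 to 0.41, less than any contractile median above. It raised the share of calls that were higher in MEF from 38.9% to 55.4% (pOPC), 43.5% to 47.6% (PC), 42.6% to 59.6% (MEF-2F), 36.2% to 51.5% (MEF-3F), 37.8% to 45.8% (PC-2F) and 40.5% to 50.4% (PC-3F).

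Within the library, the contractile share was graded over the cells. The 18 contractile genes took 0.181% to 12.7% of a cell's UMIs, with a median of 1.95% and quartiles of 1.34% and 3.47%. The medians of the other libraries were 0.105% (pOPC), 0.372% (PC), 0.264% and 0.174% (MEF-2F and MEF-3F) and 0.246% and 0.171% (PC-2F and PC-3F), and their highest cells stood at 0.571% to 1.73%. The median MEF cell was thus above the highest cell of each other library.

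Single cells show how the list was made up. The cells were numbered 1 to 62. Cell 48, at the top with 4947 UMIs, held 230 UMIs of Acta2, 164 of Tagln, 95 of Tpm1, 32 of Tpm2, 27 of Cnn1 and 18 of Actg2, and it had 2 UMIs of Col1a1, 0 of Col1a2 and 4 of Fn1. Cells 49 and 59 followed with 8.59% and 8.02%, from 2072 and 1085 UMIs. Cell 37, the deepest with 23319 UMIs, stood at 5.45% and held 410 UMIs of Acta2 (probability 0.101, expected count 414.5) and 111 of Actg2. Its collagen was not lost, with 101 UMIs of Col1a1 and 160 of Col1a2. At the low end outside the macrophage marker cells, cell 16 had 12147 UMIs, a share of 0.354% and 2 UMIs of Acta2, beside 119 of Igf2, 127 of Spp1 (osteopontin) and 40 of Ly6a (the stem cell antigen Sca-1).

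Myh11, the smooth muscle myosin heavy chain and a gene of mature smooth muscle, was found in few cells. It had 78 UMIs in 10 cells, of which 84.6% came from 3 cells, and 0 UMIs in each other library. Cells 37 and 45 held 29 and 28 of these UMIs. Cell 45 otherwise differed from cell 37: from 3434 UMIs it gave 24 of Acta2, 182 of Fn1, 89 of Thbs1, 86 of Col4a1 (basement membrane collagen), 36 of Tnc (tenascin C), 73 of Col1a1, 0 of Col1a2 and 1 of Igf2. Des (desmin), another muscle gene, had 19 UMIs in 7 cells, and 3 cells held both. Rgs5, a pericyte gene, had 31 UMIs in 8 cells, 2 of them with Myh11.

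**Figure D3:**
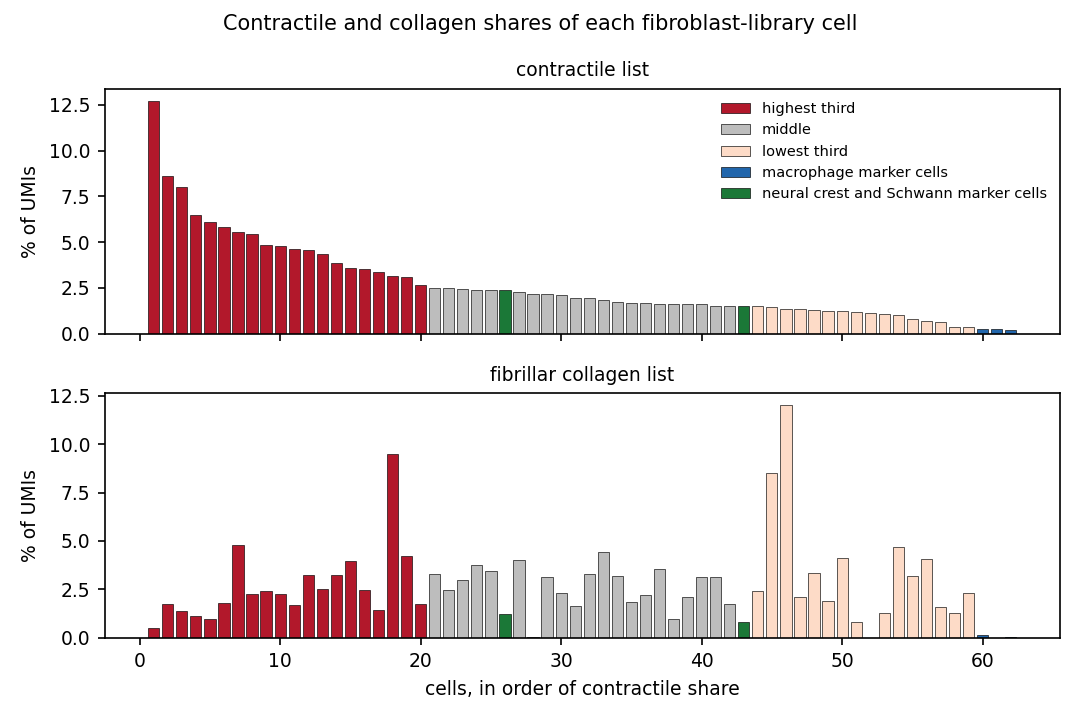
Share of each cell's UMIs (bars, in percent) in the contractile list (upper) and in the fibrillar collagen and crosslinker list (lower) for the 62 cells, in order of contractile share and coloured by position in that order or by marker group. Contractile share falls from 12.7% to 0.181%, while the 3 highest collagen shares, 12.02%, 9.47% and 8.53%, lie among the highest 20 and the lowest 20 cells.

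To see what moved with contractile share, the 20 cells with the highest share (2.65% or more) were set against the 20 with the lowest (1.502% or less), and genes were called at 1.5-fold with an interval that excluded 1. Of 3938 genes tested 311 (7.9%) were higher and 356 (9.04%) lower. The 15 of 17 contractile genes that were higher only restate how the cells were chosen. The lowest 20 held the 3 macrophage marker cells and 1 neural crest marker cell described below, and without the cells with macrophage or neural crest markers the counts were 305 (8.28%) and 329 (8.93%) of 3684. Median depth was 5931.5 UMIs in the highest and 7369 in the lowest 20, and its part in the result was not tested. The G2/M list had 0 of 8 genes higher and 2 lower, and 5 of 7 higher and 0 lower without those marker cells; the part of the cycle in the lists that follow was not tested.

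Targets of TGF-beta and YAP, which respond to tension and matrix signals, were mostly higher in the highest 20 cells. Of 13 tested, 11 were higher and 1 lower, with a median log2 ratio of 1.17 against −0.10 over all genes, and 11 and 1 also without those marker cells. Ankrd1, a stress-responsive muscle repeat protein, had 46 against 3 UMIs (13.3-fold, 4.26 to 66.6). Ctgf (connective tissue growth factor) was 3.87-fold higher (3.12 to 4.85) and Cyr61, its relative, 2.25-fold (1.78 to 2.88). Thbs1 was 1.78-fold higher and Col4a1 2.00-fold. Tgfbi was the exception, with 8 against 22 UMIs.

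Actin genes outside the contractile list were higher in the same cells. Of 10 serum response factor targets and cytoskeletal genes tested 7 were higher and 0 lower, and 8 and 0 without the marker cells. Srf itself had 29 against 8 UMIs (3.13-fold), Tpm4 (a nonmuscle tropomyosin) was 2.76-fold higher, Zyx (zyxin, of focal adhesions) 2.45-fold, Tmsb4x 2.10-fold and Actb 1.98-fold. Further genes named by their ratio were Tspan2 (a tetraspanin, 28 against 1 UMIs), Foxd1 (a stromal transcription factor, 31 against 2), Tgm2 (the crosslinking enzyme transglutaminase 2, 19 against 1) and Dmpk (a muscle kinase, 44 against 4). Fbln5 (an elastic fibre protein) had 434 against 68 UMIs and Cxcl12, a stromal chemokine, 315 against 59.

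The lowest 20 cells had more of other genes. Ly6a had 1 UMI in the highest and 120 in the lowest 20, and Spp1 14 and 234. Both were carried by few cells: Ly6a was found in 8 of the 20 lowest cells and Spp1 in 9. Crabp2 (a retinoic acid binding protein) had 1 and 27 UMIs, in 8 of the lowest cells. Ly6c1 had 1 and 21, Mgst1 (a microsomal glutathione transferase) 1 and 16. Of 7 p53 and senescence genes tested 5 were lower in the highest 20 cells and 0 higher: Cdkn1a (the cell cycle inhibitor p21) stood at 909 against 1914 CPM, Mdm2 (which degrades p53) at 175 against 464 and Cdkn2b (p15) had 9 against 34 UMIs, with Trp53inp1 and Plk2 also lower. Of 10 proteases and inhibitors 5 were lower (Mmp14, Plat, Serpine2, Ctsl and Ctsb). Ctsb and Ctsd, which encode lysosomal cathepsins, stood at 414 against 1914 CPM and 1191 against 3734 CPM. Without the macrophage and neural crest marker cells the lowest 20 had 1077 CPM of Ctsb and 3205 CPM of Ctsd.

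Collagen genes did not follow the contractile order as a list. Of 19 tested 4 were higher and 3 lower, with a median log2 ratio of −0.18, and 2 were higher and 4 lower without the macrophage and neural crest marker cells. Those higher were the crosslinking enzymes Lox (2.89-fold), Loxl1 and Loxl2 and the collagen gene Col6a1, and those lower were Col3a1 (1404 against 2784 CPM), Col6a3 and Pcolce. Col1a1 stood at 5635 against 4952 CPM and Col1a2 at 6725 against 6423, both under the fold required.

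Promoters of the list were searched for the CArG box, the element that serum response factor binds. The window was 250 bases before to 50 after the RefSeq start (GRCm38.p6). Of the 18 contractile genes 15 had an entry, and 3 (20%) held a CArG box on either strand, against 488 of 27025 genes (1.81%). The 3 sites are shown as 30 bases each, 5′ to 3′, with the box in capitals, because they are the matches in this list. Each box reads CC, then only A or T, then GG, and the windows of the other 12 genes held no match. Tagln, Actg2 and Myh11 had no entry. A CArG box can include the letters TATAA of a TATA box, as those of Cnn2 and Vcl do.
Myl9, chr2:156775293-156775322, plus strand: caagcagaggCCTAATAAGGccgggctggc
Cnn2, chr10:79988534-79988563, plus strand: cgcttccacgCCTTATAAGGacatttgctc
Vcl, chr14:20929161-20929190, plus strand: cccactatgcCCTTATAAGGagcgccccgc
The boxes began 161, 56 and 227 bases before the start of Myl9 (myosin light chain), Cnn2 (calponin 2) and Vcl (vinculin). These genes differed in use: Myl9 stood at 1468 CPM in MEF, Cnn2 at 1080 and Vcl at 10.97. Acta2 held no match in its window, chr19:34255324-34255623, which says only that this exact form is not there. That window does hold ccctatatgg and ccttgtttgg, each with a C or G inside the run, and these were not counted. Binding of serum response factor at Acta2 was not tested.

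Collagen share also varied between cells, and its highest values lay in shallow cells rich in mitochondrial UMIs. The 19 fibrillar collagen and crosslinker genes took 0% to 12.02% of a cell's UMIs, with a median of 2.32%. The 3 highest cells, 22, 28 and 3, stood at 12.02%, 9.47% and 8.53%, and the next at 4.805%. Cell 22 gave 57 UMIs of Col1a1 and 76 of Col1a2 out of 1497, and cell 28 gave 108 and 140 out of 3602. The mitochondrial share was 16.9% in cell 22, 4.53% in cell 3 and 3.30% in cell 28, against a median of 0.0833% over all cells. Cells 45 and 25, next by collagen share at 4.805% and 4.695%, had mitochondrial shares of 1.81% and 8.12%. All of these cells were shallow, with 788 to 3602 UMIs against a library median of 6880.5. The part of mitochondrial share and depth in these levels was not tested.

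Col1a1 and Col1a2 moved together in nearly all cells. Over the 52 cells with 10 or more UMIs of the pair, Col1a1 made up a median of 44.2% of it, with quartiles of 37.8% and 48.8%. In 2 of these cells, 13 and 45, the pair was Col1a1 alone: cell 13 had 12 and 0 UMIs and cell 45 had 73 and 0, where the library's level would give 32.9 and 24.3 UMIs of Col1a2. Col1a2 was at 0 in 9 cells in all, of which 3 were macrophage marker cells, 1 a neural crest marker cell and 5 others. Cells 27 and 60, of 1529 and 2433 UMIs, had 0 UMIs of either chain and fewer than 2% of their UMIs in the fibroblast list, while they held 63 and 40 UMIs of Actb and 14 and 16 of Vim. Both held 0 macrophage markers.

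Igf2 and H19, neighbouring imprinted genes of chromosome 7 that are expressed from opposite parental copies, were found together in 39 cells. Igf2 alone was found in 16 cells, H19 alone in 3 and neither in 4. H19, a noncoding RNA, stood at 3464 CPM (3295 to 3639) in 42 cells, with 0%, 0.149% and 1.75% of UMIs as the lowest, median and highest cell. Over the 43 cells with 10 or more UMIs of the pair Igf2 made up a median of 70.1%, with quartiles of 52.6% and 89.5%, a wider balance than that of the collagen chains. Unlike Igf2, H19 was also present at 275 CPM (221 to 339) in MEF-3F, 24.0 (6.54 to 61.5) in MEF-2F and 27.9 (14.4 to 48.7) in PC-3F, and had 0 UMIs in pOPC and PC.

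Pairs of genes across cells gave another view of this variation. Each cell was thinned to 1000 UMIs, which left 61 cells, and 86 genes were abundant enough, giving 3655 pairs with a median Pearson r of 0.04. All cells share 1 library, and genes of a cell share its depth, so r is a description. The highest was Col1a1 with Col1a2 (0.73, n = 61 cells), then Acta2 with Tagln (0.72), Lpp with Thbs1 (0.66) and Col4a1 with Col4a2 (0.66). Igf2 and H19 stood at 0.51. Acta2 with Col1a1 stood at 0.05 and with Col1a2 at 0.11, and at −0.12 and −0.07 over the 56 cells left without macrophage and neural crest marker cells. Ctsb with Ctsd fell from 0.58 to 0.28 without them.

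Gene by gene, variation was summarised by the Fano factor, the variance of thinned UMIs over their mean, which counting noise alone puts near 1. Mitochondrial, ribosomal protein and unnamed genes were left out. Of the 209 other genes with enough UMIs 48 were above 2, and the median was 1.34; with those genes included it was 56 of 280. The highest was Lyz2 (lysozyme, 18.5), then Fth1 (ferritin heavy chain, 15.1) and Ctsb (11.7), all of them high in the macrophage marker cells described below. Col4a1 (10.9), Col1a2 (10.9), Igf2 (9.82), Fn1 (9.78), Acta2 (9.44) and Col1a1 (7.49) followed. Ctsd (7.27), H19 (6.94), Actb (6.44), Actg2 (5.62) and Spp1 (5.03) came next. Without the macrophage marker cells 15 of the 20 highest genes were the same, and Col1a2 led with 10.9.

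**Figure D4:**
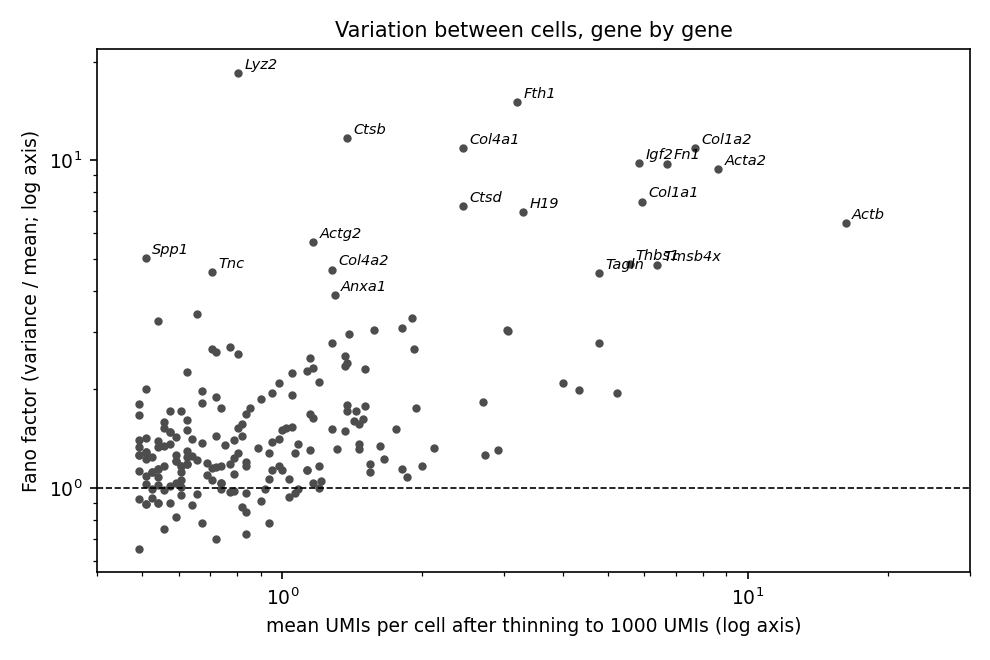
Fano factor (variance over mean of UMIs after thinning to 1000 per cell, log axis) against mean UMIs per cell (log axis) for the 209 genes tested in 61 cells; each point is a gene, the 20 highest are named and the dashed line marks the counting noise value of 1. Lyz2 at 18.5 stands highest at a low mean, and Col1a2, Acta2, Igf2 and Fn1 lie near 10 at high means.

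Macrophage-like cells were few and distinct. Cells with 3 or more of the 24 macrophage markers numbered 3 of 62, and each held 18. The list took 3.73% to 4.31% of their UMIs and at most 0.0929% in any other cell, where it had 14 UMIs in 13 of 59 cells. The 3 cells had 2621, 2761 and 2640 UMIs, below the median of 7323 of the rest. Lyz2 had 53, 38 and 20 UMIs in them, the complement gene C1qb 8, 7 and 11, the adaptor gene Tyrobp 7, 8 and 12 and the CSF1 receptor gene Csf1r 6, 1 and 6. In the other libraries 0 cells held 3 markers after thinning.

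Outside their markers these cells lacked fibroblast genes. Of 5379 genes tested, the macrophage markers included, 188 (3.5%) were at least 2-fold higher and 115 (2.14%) lower than in the other 59 cells. Col1a1 and Col1a2 had 0 UMIs, at least 15.3-fold and 19.3-fold lower with the cells set at 3 UMIs, and Acta2, Thbs1, Igf2 and Sparc had 2 UMIs each. Of 26 fibroblast genes tested 16 were lower and 1, S100a4, higher. Apoe (a lipid carrier) had 62 UMIs against 6 in all other cells, Fcrls 28 against 0, the pore-forming Mpeg1 18 against 0 and the chemokine gene Ccl4 15 against 0. Other genes named by their ratio were Ctsb, 27.6-fold higher (22.3 to 34.1), Fth1 24.8-fold (21.5 to 28.6), Lgmn (legumain) 35.1-fold and the glycoprotein gene Gpnmb 64.4-fold. The MHC class I genes H2-K1 and H2-D1 had 17 and 11 UMIs against 8 and 23.

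Markers of neural crest and Schwann cells marked 2 cells, a group added after the values were seen. Cell 40, with 11986 UMIs, held 4 markers of that list, among them 3 UMIs of Sox10 (the crest and glial transcription factor), 3 of Erbb3 (the neuregulin receptor) and 1 of Foxd3. It had 3 UMIs of Col1a1, 0 of Col1a2 and 0 of Igf2, and its depth would have given 84.9 of Col1a2 at the library's level. Other fibroblast genes were present, with 19 UMIs of Col3a1, 7 of Col5a1, 12 of Col5a2, 61 of Fn1 and 52 of Acta2. The cell also held 4 UMIs of Ngfr and 88 of Sparc, and it is called neural crest-like from 4 markers. Cell 26, with 8049 UMIs, had 3 UMIs of Sox10 and 6 of Ngfr beside 44 of the cartilage collagen Col2a1, 11 of Col1a1, 28 of Igf2 and 42 of H19. With only 2 markers of the list it stays unnamed.

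Both cells also counted as cycling, and the first lay among the 20 lowest by contractile share. Against the other 60 cells, 286 genes of 5379 (5.32%) were higher and 95 (1.77%) lower. Nes (nestin) had 16 UMIs against 32 (10.9-fold) and Cryab (a small heat shock protein) 70 against 197 (7.72-fold), and both cells held them. Tm4sf1 (65 against 135 UMIs) and Col2a1 came from 1 of the cells. Fbln2 and Lox were lower, with 7 and 10 UMIs against 861 and 1099. Sox10 is also carried by the study's viruses, which this library was not given.

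The cartilage list did not mark a cartilage-like group. Of its 24 genes 11 were detected, and Col11a1 with 271 UMIs in 44 cells and Col2a1 with 168 in 20 cells gave 53.8% and 33.3% of the list's UMIs. Sox9, the master regulator of cartilage, had 27 UMIs in 13 cells, while Acan, Col9a2, Hapln1, Matn1, Cnmd and Ucma were at 0. With no thinning 17 cells held 3 or more markers, but their median depth was 11436 UMIs against 4862 in the others. Thinned to 1000 UMIs, 1 of 61 cells did (1.64%, exact binomial 95% interval 0.0415% to 8.80%), while the transduced fibroblast libraries had 18 of 44 (MEF-2F) and 65 of 76 cells (MEF-3F). These cells are therefore described as cells with cartilage markers and given no type.

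The 17 cells with cartilage markers were set against the other 45. Of 5379 genes 137 (2.55%) were higher and 186 (3.46%) lower. Of 10 imprinted growth genes tested 3 were higher and 1 lower. Igf2 was 2.24-fold higher (2.07 to 2.42), H19 2.23-fold (2.01 to 2.47) and Cdkn1c 2.49-fold (1.11 to 5.96), while Dlk1 had 6 against 27 UMIs. Cdkn1c was found in only 4 of the 17 cells, and 1 cell gave 85% of its UMIs there. In the same cells the macrophage genes Apoe and Lyz2 were lower, with 1 and 0 UMIs. The 3 macrophage marker cells all lay among the other 45 and held 91.2% of the library's Apoe UMIs and 99.1% of its Lyz2 UMIs. This contrast therefore restates where those 3 cells fell. The 12 cells with 3 or more UMIs of Col2a1 gave 200 higher (3.72%) and 199 lower (3.7%). In them H19 was 2.02-fold (1.82 to 2.24) and Igf2 1.32-fold (1.21 to 1.43) as high, and Spp1 had 1 UMI against 266. Of the other imprinted genes, Plagl1 was 2.14-fold higher (1.28 to 3.51). Cdkn1c went the other way here, with 2 against 28 UMIs (0.240-fold, 0.0277 to 0.952).

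Cycling cells were a minority. After thinning, 10 of 61 cells held 3 or more G2/M genes (16.4%, 8.15% to 28.1%), 9 held 3 or more G1/S genes, and 16 held either. The share was 75.5% of 49 cells in pOPC (61.1% to 86.7%) and 47.4% of 154 in PC (39.3% to 55.6%), both above the MEF interval. The transduced fibroblasts had 6.82% of 44 cells (1.43% to 18.7%, MEF-2F) and 10.5% of 76 (4.66% to 19.7%, MEF-3F), whose intervals overlap that of MEF. Mki67, the proliferation antigen, was found in 9 cells and Top2a (topoisomerase II) in 15.

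With the G2/M list that chose the cells included, 237 of 5369 genes (4.41%) were higher in the 10 cycling cells and 141 (2.63%) lower. The genes named next are outside that list. Ccna2 (cyclin A2) was 6.00-fold higher (2.85 to 12.9), the linker histone gene H1f0 5.45-fold, Ckap5 (a microtubule polymerase) 4.25-fold, Rrm2 (ribonucleotide reductase) 4.23-fold and the condensin gene Smc2 4.203-fold. Immediate early genes Fos, Fosb, Ier2 and Atf3 were the 4 of 13 stress genes called higher, Fos at 2.14-fold. Fos was found in 8 of the 10 cycling cells and Ier2 in 7, but Fosb in only 3 and Atf3 in 4. A single cell gave 55.6% of the Fosb UMIs of the cycling cells, and a single cell 65% of those of Atf3. Lower genes included Dcn (0 against 75 UMIs), Pmaip1 (a p53-induced BH3 protein, 3 against 95), Perp (another p53 target, 1 against 60), Cxcl14 (a chemokine, 2 against 94) and Spp1 (7 against 260). Dcn and Spp1 rested on few cells. Dcn was found in 9 of the 51 other cells, and Spp1 in 12 of them and in 4 cycling cells. In the whole library 3 cells gave 66.7% of the Dcn UMIs and 3 cells 76.4% of those of Spp1. Of 9 p53 and senescence genes, Cdkn2b (2 against 62 UMIs) and Trp53inp1 (4 against 58) were lower and 0 were higher. Of 17 contractile genes 0 were called in either direction, with a median log2 ratio of −0.03.

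Several genes were found in small sets of cells. Ly6a had 146 UMIs in 15 cells, of which 73.3% came from 3, and of the 7 cells with Ly6c1, a gene of the same cluster, 6 also held Ly6a. Spp1 had 267 UMIs in 16 cells, 47.6% of them in cell 16, while PC stood at 11140 CPM. Dcn had 75 UMIs in 9 cells, and 5 of these held Ly6a. Among tendon genes Tnmd (tenomodulin) had 61 UMIs in 18 cells and Fmod (fibromodulin) 69 in 15, with 5 cells in common. Cxcl12 was broad in comparison, at 1446 CPM in 41 cells, and so was Tnc at 650 CPM in 45. Stmn2, a neuronal gene, had 12 UMIs in 1 cell, cell 23, and 0 in each other library. Col10a1, the collagen of hypertrophic cartilage, had 36 UMIs in 4 cells and 0 in all other libraries.

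**Figure D5:**
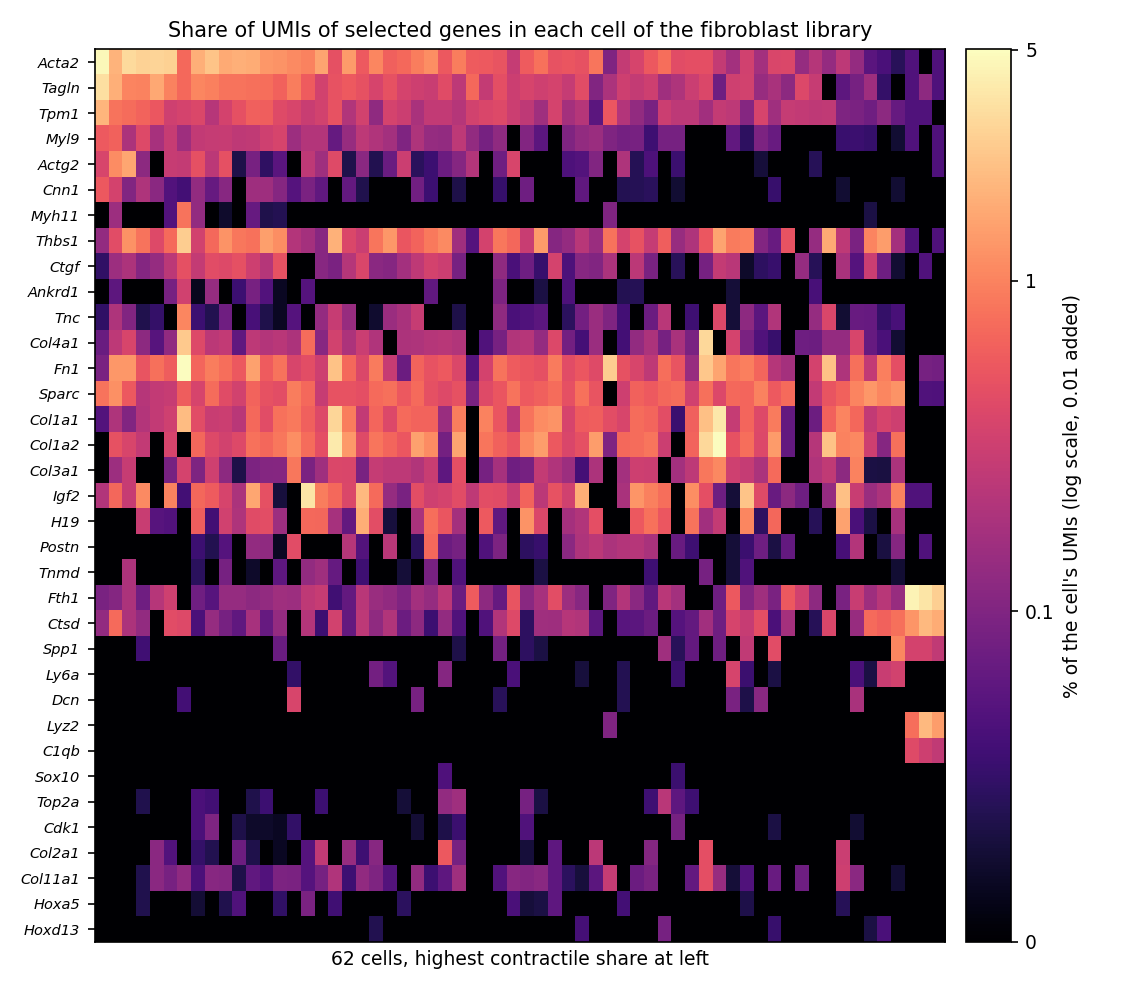
Share of each cell's UMIs (colour, log scale with 0.01 added, in percent) for selected genes (rows) in the 62 cells (columns), ordered from the highest contractile share at the left. Acta2 and Tagln fade from left to right, Col1a1, Col1a2 and Igf2 stay patchy throughout, and Lyz2 and C1qb fill only the 3 columns at the far right, apart from 1 cell with Lyz2.

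Hox genes, which record position along the body axis, were detected in 44 of 62 cells. The 28 Hox genes found gave 215 UMIs, or 472 CPM, against 474 and 448 CPM in MEF-2F and MEF-3F, 26.4 and 23.3 in PC-2F and PC-3F and 0 in pOPC and PC. Genes of groups 1 to 5, used toward the head, gave 132 CPM (100.5 to 170) in 26 cells, groups 6 to 9 178 CPM (141 to 221) in 29 cells, and groups 10 to 13, used toward the tail and in the limb ends, 162 CPM (128 to 204) in 21 cells. Groups 10 to 13 stood at 36.02 CPM (13.2 to 78.4) in MEF-2F and 77.3 (50.03 to 114) in MEF-3F, and Hoxd11 and Hoxd13 had UMIs in MEF alone.

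Hox UMIs were sparse in single cells. Groups 1 to 5 without groups 10 to 13 were seen in 18 cells, the reverse in 13 and both in 8, and with so few UMIs per gene a 0 is not absence. The 18 cells with no Hox UMI had a median of 2700.5 UMIs against 8307.5 in the rest. Hoxa5 led with 59.3 CPM in 15 cells, and Hoxa10 stood at 46.1. Hoxd11, Hoxd12 or Hoxd13, genes of limb ends and hind body, occurred in 11 cells, 3 of them with a gene of groups 1 to 5. Of the 4 Col10a1 cells 3 also held Hoxd13.

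Markers of other cell types varied. The pericyte list had 294 UMIs in 53 cells, mainly from Mcam (100), Pdgfrb (92) and Cspg4 (46), and 19 of 62 cells held 3 or more of its genes. After thinning 2 of 61 did, against 1 of 154 in PC, and no cells were named from it. The OPC list had 168 UMIs in 43 cells, mostly from Vcan (95), with 3 cells at 3 or more markers and 0 after thinning. Osteoblast genes had 280 UMIs, 267 of them Spp1, tendon genes 170, with 4 cells at 3 or more, and neural genes 58 in 26 cells. Mesothelial and erythroid genes were at 0 (0 of 5 and 0 of 7 detected), epithelial genes had 4 UMIs and skeletal muscle genes 10. Endothelial genes had 55 UMIs in 25 cells, 46 of them from Flt1, with 0 cells holding 3 markers. Clustering of the 62 cells gave 3 clusters of 21, 23 and 18 cells, which were left unnamed. The cluster of 21 was led by Atad2, Top2a and Mki67 and held the 3 macrophage marker cells. The cluster of 23 was led by Tgm2, Hspb1 and Txnip with a median contractile share of 3.39%, and that of 18 by Ly6a, Ctla2a and Cd55 with 1.397%. Cluster genes are descriptions, since the cells were grouped by them.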

How the data were processed

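Each library was a matrix of 1 value per gene and barcode. The values the authors deposited are of an unnamed kind (unit: other), and the labels do not say how they arose. Tools in the submitters' processing notes, in no stated order or role, are featureCounts 1.6.1 (Subread), STAR 2.5.3a, UMI-tools 0.5.3 and bcl2fastq 2.19.1.403, with the build mm10. Each value was read as the place of a UMI count in the text-sorted list of occurring counts and decoded by aligning codes to whole numbers with a smooth frequency model; each code took its most probable count, and its rounded expected count was an alternative. Decoding and comparisons were tested on simulated data. Barcodes with 500 or more UMIs were kept. The plan took barcodes for cells; after the barcodes were compared, the deepest barcode of each family of shared last 15 bases was taken instead. No doublet caller was run on 62 cells; leaving out the deepest 5% was an alternative.

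UMIs were summed over cells and divided by the total for CPM. Ratios carry exact 95% intervals conditional on both counts, cell shares exact binomial intervals; all cover counting error only. A gene at 0 UMIs was set at 3 for a bound, and log2 ratios added 0.5 UMIs. Groups of cells were compared for genes with 15 or more UMIs. Thinning drew 1000 UMIs per cell. Fano factors needed 30 thinned UMIs over all cells, correlations 60, both without mitochondrial, ribosomal protein and unnamed genes. Gene positions are of GRCm38, the assembly of mm10, and promoters come from RefSeq. Named genes were the 5 markers, the 20 highest by level and by Fano factor, the 4 highest of each list, the 10 highest and lowest ratios per comparison, and the list members called, the last chosen after their values were seen. Single values of some list members are not reported here. Members and the 33 lists were chosen with earlier results of these data known. Python 3.11.15, numpy 2.4.6, scipy 1.17.1, pandas 2.3.3, scanpy 1.11.5 and matplotlib 3.10.9 were used. Depth sets the precision: 3 UMIs of the MEF total are 6.58 CPM.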

Additional observations from a re-analysis of the deposited data

How the results depend on the processing

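No paired analysis was possible because each population has 1 library and no replicate numbers. Of 160 alternative values for 22 main results, 128 kept their value within the margin set and 32 moved. Counting all barcodes as cells gave 131 cells, 32 with cartilage markers, 26 cycling, 5 with neural crest markers, and 603 higher and 769 lower genes between the cells with the highest and the lowest contractile share; summing a family's UMIs gave 565 and 782. Requiring 100 CPM and 30 UMIs gave 660 higher and 1107 lower genes against pOPC, 393 and 588 (PC), 460 and 374 (MEF-2F), 445 and 631 (MEF-3F), 415 and 633 (PC-2F) and 451 and 635 (PC-3F), since fewer genes were tested, and TMM scaling gave 1257 higher against MEF-2F. At 2 or more markers 30 cells carried cartilage markers and 17 were cycling, at 5 or more 1 and 5, and with no thinning 24 were cycling; at 3 or more markers 1 cell carried neural crest markers. The median contractile share was 1.35% without Acta2 and 0.780% without the 3 most abundant members. Without the macrophage, cartilage marker and cycling cells 181 genes were higher and 220 lower between the cells with the highest and the lowest contractile share. Fewer cells remained, and whether that or the cells left out lowered the counts was not tested. At 2000 UMIs per cell 106 of 502 genes tested had a Fano factor over 2, against 48 of 209 at 1000. Averaging per-cell shares in place of summing UMIs moved the levels of 24 of 31 genes by more than their interval, to 0.771 to 2.79 times, with Lyz2, Fth1 and Ctsb, genes of the macrophage marker cells, over 1.5 times. Depth limits genes seen in few cells, and a gene at 0 in a cell of 1000 UMIs may still be expressed.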

Other observations

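Levels of 1 X-linked gene and of Y-linked genes are given as values for the libraries made from fibroblasts. Xist, the RNA of the inactive X chromosome, had 1 UMI in the untransduced library, 11 UMIs (66.04 CPM) in MEF-2F and 19 UMIs (58.7 CPM) in MEF-3F. Ddx3y, a Y-linked RNA helicase gene, had 39 UMIs (85.6 CPM) in the untransduced library. It had 9 UMIs (54.04 CPM) in MEF-2F and 8 UMIs (24.7 CPM) in MEF-3F. Eif2s3y, a Y-linked translation factor gene, had 12 UMIs (26.3 CPM) in the untransduced library. It had 6 UMIs in each of MEF-2F (36.02 CPM) and MEF-3F (18.6 CPM), so these levels rest on few molecules.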
